A study of Brassica napus with 12 samples.

Results

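R8Q10 and YH25005 are inbred lines of rapeseed (Brassica napus), and their immature seeds were compared by RNA sequencing 24 days after pollination. Each line had 3 libraries, 6 of the 12 libraries of a series on 4 lines in which the trait of interest is a high or low content of linolenic acid. Flowers were bagged and selfed on field-grown plants, and the labels give no treatment. The labels name seeds as the tissue and embryos in the protocol for RNA extraction, and they do not state which line has which trait. The labels also do not say whether the libraries of a line came from separate plants, and the p-values then cover the spread among these libraries alone, which may be technical.

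The genes compared were those listed in the files of both lines, 43708 of the 50338 listed in the series. The ID of a gene names its chromosome for most of them. By ID, 33817 lay on the 17 chromosomes other than A10 and C9, 1489 lay on A10, 2151 lay on C9 and 6251 named no chromosome, among them 2093 genes that the authors had added to the annotation. Genes appear to have entered a list on the counts of 2 lines together, R8Q10 with A28 and YH25005 with SW. A gene can thus be listed for a line in which it has 0 counts. Under this rule it then has counts in the other line of that pair by the listing alone. Genes listed for 1 of the lines only, 3499 for R8Q10 and 3131 for YH25005, entered no comparison.

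Rapeseed is an allotetraploid that joins an A subgenome, from the lineage of turnip, with a C subgenome, from the lineage of cabbage. Most genes therefore exist as similar A and C copies, called homoeologues, and large parts of A10 and C9 are homoeologous to each other. In rapeseed lines, stretches of one subgenome are known to have been replaced by the matching stretch of the other. At the stage sampled, rapeseed embryos are filling with storage oil and storage proteins, and linolenic acid is made there by desaturation of linoleic acid. The reference table at hand matched 1934 of the shared IDs and gave a name for 2 of them, so that 0 members of the lists of oil, storage protein, seed coat and endosperm genes could be found. Genes are therefore described by ID, without roles, and neither the tissue label nor the seed parts could be checked by markers.

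Library totals lay between 32569259 and 38867960 counts, and a count of 0 allowed up to 0.0653 to 0.112 CPM (counts scaled to library size) per library, for counting error only. Correlations of log2 CPM across genes, which are not independent replicates, ran from 0.913 to 0.952 within a line and from 0.604 to 0.728 between the lines. CPM are given after TMM scaling, whose factors were 1.12 to 1.18 in R8Q10 and 0.824 to 0.958 in YH25005. With library totals alone in place of these factors the median log2 difference of all tested genes moved by 0.40, towards R8Q10.

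Away from A10 and C9, close to 3 genes in 10 differed between the lines, about as many in each direction. Of 33682 genes tested on the 17 other chromosomes, 9937 passed an adjusted p of 0.05 in edgeR's quasi-likelihood test, against 31.5% of all genes tested. The 9937 genes made up 29.5%, and 4830 were higher in R8Q10 and 5107 lower, or 14.3% and 15.2% (all genes, 15.2% and 16.2%). The median log2 fold change was 0.04 over all 33682 genes, 1.28 among those called higher and -1.32 among those called lower. A change of at least 2-fold was found in 3280 of the higher and 3627 of the lower genes, and one of at least 16-fold in 329 and 323. Over all 43473 genes tested the 2-fold counts were 4607 and 5249 (22.7% together), and the 16-fold counts 578 and 1032. In these bulk samples fewer cells of a type and less RNA per cell cannot be told apart. The number of calls was 5040 without YH25005 replicate 3, 5347 without YH25005 replicate 1 and 5760 without R8Q10 replicate 1. Only omissions that lowered the number are listed here, and its full range, given at the end, also reached above 9937. With library totals alone 10495 genes were called higher and 2735 lower, so that 79.3% of the calls were higher in place of 48.6%.

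The called genes were spread over all of the 17 chromosomes. Between 24.7% (C8) and 36% (A4) of a chromosome's tested genes were called. The A subgenome had 2690 genes higher and 2720 lower of 17019 tested, or 31.8%, and the C subgenome 2140 and 2387 of 16663, or 27.2%. In 9127 of the 9937 called genes each of the 6 libraries held at least 10 counts, and a further 117 had 0 counts in all R8Q10 libraries and 172 in all YH25005 libraries. Over all genes tested, 512 called genes had 0 counts in R8Q10 and 328 in YH25005. The libraries of the lines did not overlap in 8306 genes that were higher in R8Q10 and 8227 that were lower, of the 33682, while of all genes tested 25.2% did so in the higher and 25.2% in the lower direction. Of the 23745 genes that were not called, 12702 had a 95% interval of the fold change that stayed within 2-fold. For the other 11043 the data leave a 2-fold difference possible.

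By level, the balance of the calls shifted towards YH25005 in the most abundant genes. Genes were put in classes by their mean CPM over the 6 libraries, which is not corrected for gene length. Among 1001 genes at 100 CPM and over, 285 (28.5%) were lower in R8Q10 and 92 (9.19%) were higher, with a median log2 fold change of -0.32 over the class. At 10 to under 100 CPM 2552 of 14771 genes (17.3%) were lower and 2258 (15.3%) higher. At 1 to under 10 CPM the order turned, with 2221 of 17283 genes (12.9%) lower and 2386 (13.8%) higher. Of the 627 genes tested under 1 CPM, 49 (7.81%) were lower and 94 (15%) higher. A high level in 1 line alone can place a gene in the top class, since the mean runs over both lines. Which direction leads in that class depends on the scaling, because with library totals alone 210 of its genes were called higher and 169 lower. Higher genes made up 24.4% of its calls, against 48.6% of all calls outside A10 and C9. With library totals alone these values were 55.4% and 79.3%. The top class also had 40 higher and 125 lower genes without R8Q10 replicate 1, 25 and 162 without YH25005 replicate 1, 20 and 139 without YH25005 replicate 3, and 142 higher without R8Q10 replicate 2. Without the first 3 of these libraries, in that order, 1321, 1028 and 983 genes were higher and 1383, 1382 and 1291 lower at 10 to under 100 CPM. At 1 to under 10 CPM 1427, 1307 and 1256 were then higher and 1366, 1337 and 1246 lower, and under 1 CPM 60 were higher without R8Q10 replicate 1.

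**Figure D1:**
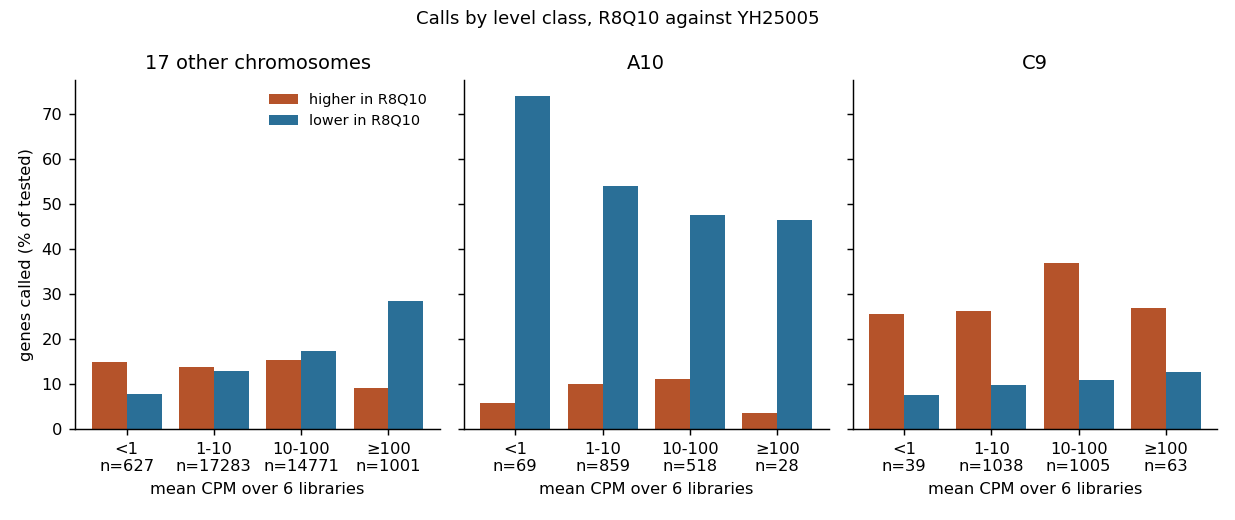
Percent of tested genes called higher (brown) or lower (blue) in R8Q10 than in YH25005, by class of mean CPM over the 6 libraries, on the 17 other chromosomes, on A10 and on C9; n is the number tested. On the 17 other chromosomes the lower calls reach 28.5% at 100 CPM and over against 9.19% higher, a balance that turns to 169 lower and 210 higher genes with library totals alone, while on A10 lower calls lead in every class.

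The 285 abundant genes lower in R8Q10 carried a large part of the YH25005 libraries. They held 3.01%, 5.22% and 2.11% of the counts in R8Q10 replicates 1 to 3, and 26.6%, 18.2% and 25.7% in YH25005 replicates 1 to 3. The 10 of them with the most counts held 0.341%, 0.957% and 0.074% in R8Q10 and 15.9%, 9.9% and 15.1% in YH25005. All 285 were without overlap between the lines, as were 455 of all 1001 genes of the class in the lower direction. The 285 came from all of the 17 chromosomes, 151 from the A and 134 from the C subgenome. The libraries of each line stood in much the same order from gene to gene. Within R8Q10, replicate 2 was the highest in 239 of the 285 genes and replicate 3 the lowest in 233, and within YH25005 replicate 2 was the lowest in 247. Replicate 2 of either line thus lay nearest to the other line, and the part of this order in the calls was not tested. Since the genes were chosen by this contrast, their shares and their lack of overlap are a description.

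The 4 called genes of highest mean CPM among all placed genes were lower in R8Q10. BnaA01g17200D had 623, 1578 and 97.2 CPM in R8Q10 and 41453, 21530 and 40748 CPM in YH25005. Its mean deposited FPKM, which does account for length, was 1434 against 41294, and its log2 fold change was -5.50 (SE 1.32, adjusted p = 0.0191, edgeR). The lines were far apart, and the R8Q10 libraries differed among themselves by more than 10-fold. BnaC01g09900D had 242, 611 and 21.5 CPM in R8Q10 and 32747, 17198 and 31406 CPM in YH25005, a log2 fold change of -6.54 (SE 1.44, adjusted p = 0.014). BnaC01g43250D had 456, 1555 and 161 CPM against 22881, 12566 and 22442 CPM, a log2 fold change of -4.74 (SE 1.09, adjusted p = 0.0165). BnaA10g02240D, on A10, had 210, 432 and 13.5 CPM against 23395, 12708 and 23783 CPM, a log2 fold change of -6.51 (SE 1.41, adjusted p = 0.013). In all 4 genes R8Q10 replicate 2 was the highest of its line and YH25005 replicate 2 the lowest of its line, with no overlap between lines. Without R8Q10 replicate 1 the adjusted p of these genes rose to between 0.0625 (BnaA10g02240D) and 0.0907 (BnaA01g17200D), while the log2 fold changes stayed between -6.49 and -4.49. Without YH25005 replicate 3 that of BnaA01g17200D was 0.0529.

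The largest fold changes among abundant genes with at least 10 counts in every library belonged to BnaC07g48660D and BnaC05g02160D. BnaC07g48660D had 82.3, 105 and 4.61 CPM in R8Q10 and 20270, 10711 and 17162 CPM in YH25005, a log2 fold change of -7.97 (SE 1.40, adjusted p = 0.00585, edgeR). BnaC05g02160D had 88.1, 134 and 2.02 CPM in R8Q10 and 12654, 6797 and 12282 CPM in YH25005, a log2 fold change of -7.15 (SE 1.52, adjusted p = 0.0122). Replicate 3 was again the lowest R8Q10 library and replicate 2 the lowest YH25005 library, with a wide gap between the lines. Without R8Q10 replicate 1 BnaC05g02160D no longer passed (adjusted p = 0.0528). In the libraries of A28, scaled over all 12, both genes stayed at or below 4.92 CPM, and in SW they reached 43.2 and 252 CPM.

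Abundant genes higher in R8Q10 were fewer, and 4 of the 92 changed by at least 16-fold, against 37 of the 285 that were lower. The 92 genes held 3.47%, 2.4% and 3.98% of the counts in R8Q10 and 0.581%, 1.08% and 0.751% in YH25005. Without overlap were 90 of them, and 169 of all 1001 genes of the class in the higher direction. The 92 were likewise chosen by this contrast. Here replicate 2 was the lowest R8Q10 library in 67 genes and the highest YH25005 library in 71, again the libraries nearest to the other line. BnaA07g13930D had 322, 187 and 970 CPM in R8Q10 and 13.5, 11.6 and 15.2 CPM in YH25005, a log2 fold change of 5.19 (SE 0.67, adjusted p = 0.00159, edgeR). BnaA07g36480D had 407, 255 and 854 CPM in R8Q10 and 7.11, 43.3 and 18.3 CPM in YH25005, a log2 fold change of 4.46 (SE 0.78, adjusted p = 0.00582). Both were lowest in replicate 2 and highest in replicate 3 of R8Q10, and neither overlapped with YH25005.

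The called genes with the highest means among those raised in R8Q10 were close to the threshold. BnaA02g01450D had 1562, 1692 and 2739 CPM in R8Q10 and 506, 630 and 882 CPM in YH25005, a log2 fold change of 1.57 (SE 0.42, adjusted p = 0.0287, edgeR). BnaC09g44450D, on C9, had 871, 806 and 1837 CPM against 351, 487 and 463 CPM, a log2 fold change of 1.43 (SE 0.42, adjusted p = 0.0382). The lines did not overlap, and replicate 3 was the highest R8Q10 library of both genes. BnaC01g16050D had 1116, 485 and 655 CPM against 281, 386 and 261 CPM, a log2 fold change of 1.28 (SE 0.39, adjusted p = 0.042). BnaA01g13670D had 1013, 517 and 630 CPM against 271, 381 and 281 CPM, a log2 fold change of 1.21 (SE 0.35, adjusted p = 0.0366). In these 2 genes, by contrast, replicate 1 was the highest R8Q10 library. All 4 lost their call without R8Q10 replicate 1 or without any 1 of the YH25005 libraries, with adjusted p of 0.0599 to 0.15 and log2 fold changes of 0.88 to 1.81. BnaC09g44450D and BnaC01g16050D also lost it without R8Q10 replicate 3, at 0.051 and 0.0539.

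The genes of highest mean that did not pass varied widely within each line. BnaA06g40240D had 9231, 4218 and 5882 CPM in R8Q10 and 1022, 5536 and 2563 CPM in YH25005, and the 95% interval of its log2 fold change ran from -0.65 to 2.82 (adjusted p = 0.294, edgeR). BnaC05g31880D had 7968, 2186 and 3841 CPM against 431, 3371 and 1199 CPM, with an interval from -0.52 to 3.48 (adjusted p = 0.217). BnaC07g18750D had 8729, 1631 and 1359 CPM against 426, 2790 and 1327 CPM, with an interval from -0.86 to 3.60 (adjusted p = 0.302). In all 3 genes the lines overlapped, replicate 1 was the highest R8Q10 library and replicate 2 the highest YH25005 library, and the intervals leave changes of more than 4-fold possible.

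**Figure D2:**
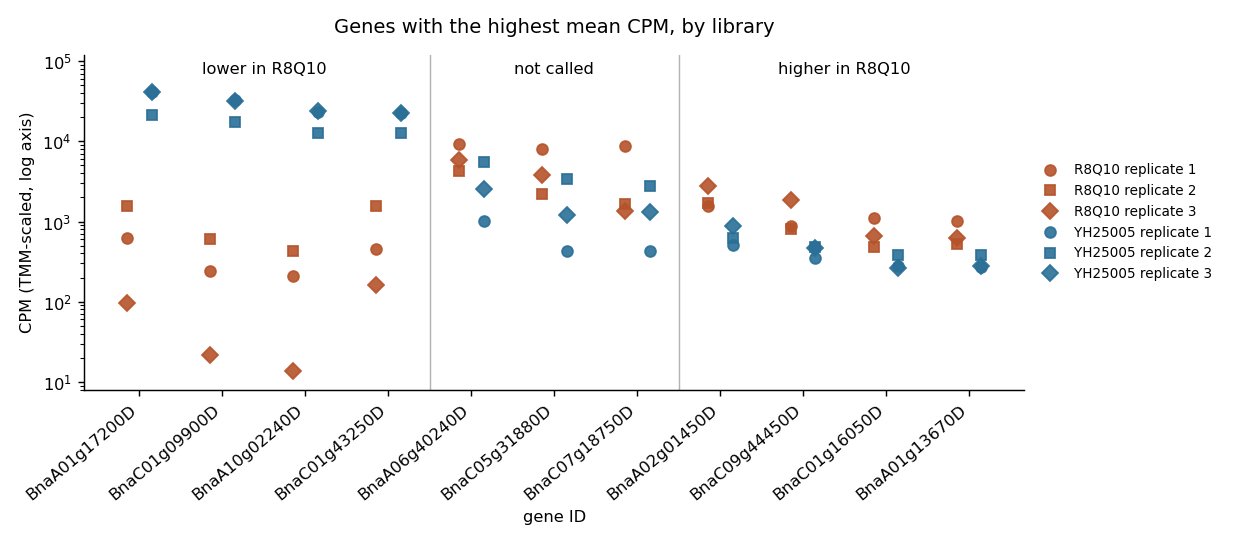
CPM in each of the 6 libraries (log axis; brown R8Q10, blue YH25005, one marker shape per replicate) of the placed genes with the highest means: 4 called lower in R8Q10, 3 not called and 4 called higher. The genes called lower lie at 13.5 to 1578 CPM in R8Q10 and at 12566 CPM or more in YH25005, the genes called higher differ by factors of 2.31 to 2.97 between line means, and the genes not called overlap.

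A few abundant genes had no count in R8Q10. BnaA02g30780D had 0 counts in all 3 R8Q10 libraries and 348, 248 and 467 CPM in YH25005, and was at least 13975-fold lower against a floor of 3 counts over the line's libraries (adjusted p = 0.00011, edgeR). BnaA01g30200D had 0 counts in R8Q10 and 262, 154 and 289 CPM in YH25005, at least 9228-fold lower (adjusted p = 0.000115). All YH25005 libraries were far above 0 for both genes, and A28 and SW had counts of both as well. In A28 the listing would require such counts. In the top class, 3 genes called lower had 0 counts in R8Q10 and 0 genes called higher had 0 counts in YH25005.

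In the class of 10 to under 100 CPM the named genes with the largest changes were present in 1 line and without counts in the other. BnaA02g09050D had 0 counts in R8Q10 and 89.5, 130 and 115 CPM in YH25005, at least 4623-fold lower (adjusted p = 6.28e-05, edgeR). BnaC03g07200D had 0 counts in R8Q10 and 100, 78.3 and 110 CPM in YH25005, at least 3852-fold lower (adjusted p = 6.12e-05). This gene also had 0 counts in SW, while A28, where the listing would require counts, had 85.3 to 197 CPM. BnaC01g37760D had 60.1, 56.4 and 52.5 CPM in R8Q10 and 0 counts in YH25005, at least 1725-fold higher (adjusted p = 5.83e-05). BnaA09g03060D had 35.8, 58 and 62.1 CPM in R8Q10 and 0 counts in YH25005, at least 1589-fold higher (adjusted p = 0.000123). Both of the latter had counts in A28 and SW, of which the listing would require those in SW. In this class 17 called genes had 0 counts in R8Q10 and 19 had 0 counts in YH25005.

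Genes of the same class with counts in every library changed by up to about 100-fold. BnaC04g31350D had 0.25, 0.261 and 0.3 CPM in R8Q10 and 41.9, 9.8 and 37.5 CPM in YH25005, a log2 fold change of -6.76 (SE 0.64, adjusted p = 0.000398, edgeR). BnaA07g20210D had 1.33, 2.2 and 1.53 CPM in R8Q10 and 189, 115 and 180 CPM in YH25005, a log2 fold change of -6.57 (SE 0.35, adjusted p = 5.83e-05). Both varied little across R8Q10 and were lowest in replicate 2 of YH25005. BnaA03g08720D had 36.6, 19.8 and 54.6 CPM in R8Q10 and 0.508, 0.94 and 0.522 CPM in YH25005, a log2 fold change of 5.78 (SE 0.48, adjusted p = 0.000223). BnaA06g38980D had 49.2, 44.8 and 49.2 CPM in R8Q10 and 1.52, 0.859 and 0.783 CPM in YH25005, a log2 fold change of 5.50 (SE 0.29, adjusted p = 5.83e-05). No library of one line came near the other in any of these genes. In A28, BnaA06g38980D lay at 1.06 to 2.54 CPM, as low as in YH25005, and in SW at 28.1 to 43 CPM.

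In the class of 1 to under 10 CPM genes without counts in 1 line were most numerous, 81 called genes with 0 in R8Q10 and 127 with 0 in YH25005. BnaC02g34010D had 0 counts in R8Q10 and 16.1, 21.2 and 19.9 CPM in YH25005, at least 787-fold lower (adjusted p = 7.03e-05, edgeR). BnaA09g25940D had 0 counts in R8Q10 and 20.7, 19.2 and 12.6 CPM in YH25005, at least 723-fold lower (adjusted p = 0.000144). In the opposite direction, the YH25005 libraries held no count of a further pair. BnaA09g03830D had 18.5, 29.7 and 10.9 CPM in R8Q10, at least 624-fold higher (adjusted p = 0.000601), and BnaC01g37580D had 19.5, 13.6 and 25.7 CPM, at least 585-fold higher (adjusted p = 0.000211). A28 and SW each had counts of all 4 genes. The listing would require this of A28 for the genes at 0 in R8Q10, and of SW for those at 0 in YH25005.

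Named genes of that class with counts in every library showed graded differences. BnaC04g44790D had 0.401, 0.544 and 0.545 CPM in R8Q10 and 13, 19.7 and 25.6 CPM in YH25005, a log2 fold change of -5.28 (SE 0.33, adjusted p = 7.46e-05, edgeR). BnaC07g14970D had 0.351, 0.479 and 0.709 CPM against 17.8, 14.9 and 22.7 CPM, a log2 fold change of -5.17 (SE 0.32, adjusted p = 7.46e-05). The R8Q10 libraries of both lay below 1 CPM. BnaC05g45710D had 12.4, 9.64 and 19.2 CPM in R8Q10 and 0.435, 0.376 and 0.746 CPM in YH25005, a log2 fold change of 4.74 (SE 0.40, adjusted p = 0.000226). BnaA07g20740D had 13.1, 10.5 and 11.1 CPM against 0.544, 0.376 and 0.522 CPM, a log2 fold change of 4.59 (SE 0.25, adjusted p = 5.83e-05). For these genes it was YH25005 that lay below 1 CPM, and BnaA07g20740D had 0 counts in A28.

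In its median fold change, chromosome C4 stood apart from the other 16 through 1 library. Its genes had a median log2 fold change of 0.22, and 367 of 2090 (17.6%) were called higher and 212 (10.1%) lower. Chromosome by chromosome, each library was set against the other 2 libraries of its line, over genes with at least 10 counts in all 6 libraries and on the scale of log2(CPM + 0.5). R8Q10 replicate 1 lay 0.38 above the other R8Q10 libraries in the median of 2022 C4 genes, and 88% of these genes lay above the median difference of all genes. R8Q10 replicates 2 and 3 were at -0.19 and -0.18 on C4. Each of them was set against a mean that includes replicate 1, so its excess lowers both values by construction. The other 111 combinations of library and chromosome lay between -0.06 and 0.05. C4 took 6.67% of the counts in R8Q10 replicate 1, 5.38% and 5.15% in replicates 2 and 3, and 4.44%, 4.61% and 4.39% in YH25005. These shares are not TMM-scaled, and in them replicates 2 and 3 also lay above every YH25005 library. The excess of R8Q10 replicate 1 over the other R8Q10 libraries was of like size at each level, with 0.34 at 1 to under 10 CPM, 0.41 at 10 to under 100 CPM and 0.39 at 100 CPM and over. Along C4, 48 of 56 windows of 100 consecutive ID numbers had a median log2 fold change between the lines above 0. On the other 16 chromosomes 391 of 732 windows (53.4%) did so. These medians use all 6 libraries, and the excess of R8Q10 replicate 1 was not counted by window. Without R8Q10 replicate 1, C4 had 165 genes called higher and 159 lower, and its median stood 0.02 above that of the 17 chromosomes, against 0.18 with it. The pattern was noticed in these data and was not tested.

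**Figure D3:**
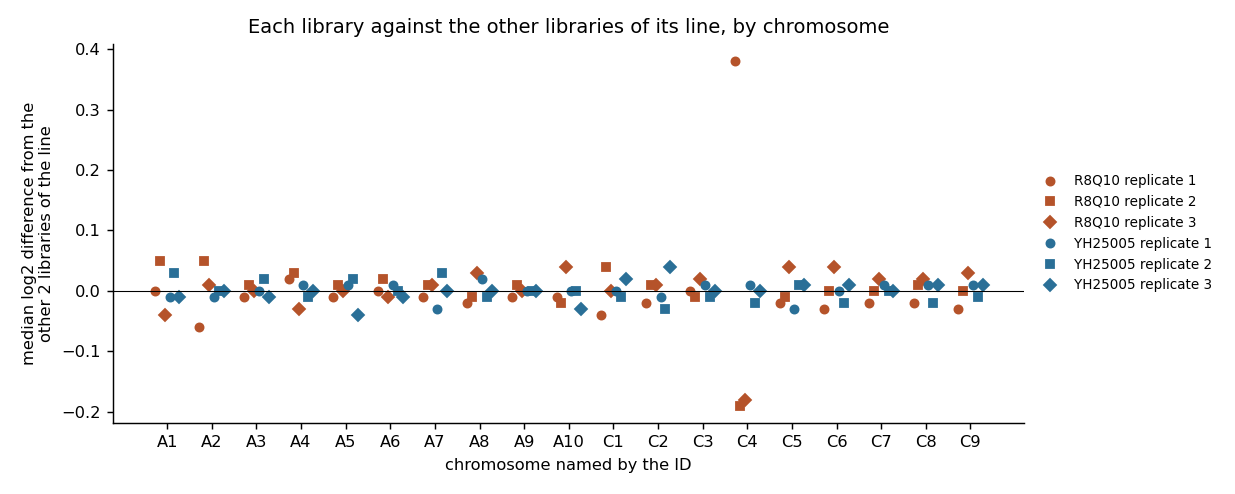
Median log2 difference of each library from the other 2 libraries of its line, by chromosome (brown R8Q10, blue YH25005, one marker shape per replicate), centred on the median over all placed genes. R8Q10 replicate 1 stands at 0.38 on C4 and replicates 2 and 3 at -0.19 and -0.18, while all other values lie between -0.06 and 0.05. Replicates 2 and 3 are each set against a mean that includes replicate 1, so its excess lowers both by construction.

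In other places the calls ran together along short stretches of IDs. Windows of 100 ID numbers with at least 20 tested genes were counted, 788 of them outside A10 and C9, and the stretches below were picked after their values had been seen, so they are given without a test. Most genes were called lower in 3 of these windows and higher in 1. That window, on A9 from BnaA09g03030D to BnaA09g03960D, held 50 tested genes. All but 1 of them were higher in R8Q10, and 48 had 0 counts in YH25005. With such genes at their bound the median log2 fold change was 7.88. The genes took 0.0637%, 0.0759% and 0.0611% of the counts in R8Q10 and 0.00387%, 0.00295% and 0.00568% in YH25005, so these libraries held next to none of the counts. BnaA09g03060D and BnaA09g03830D, described above, lie in it. The next window, from BnaA09g04010D to BnaA09g04990D, had 17 of 37 genes higher, with 14 at 0 in YH25005.

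The first 3 windows of A9, before that stretch, moved the other way. From BnaA09g00050D to BnaA09g02950D 71 of 142 tested genes were lower in R8Q10 and 4 higher, with a median log2 fold change of -0.77. Their median CPM was 8.83, 8.59 and 8.89 in R8Q10 and 14.2, 14 and 13.9 in YH25005. On A1, from BnaA01g29020D to BnaA01g30960D, 47 of 95 genes were lower and 9 higher, with a median of -0.78. BnaA01g30200D, described above, lies there. In both stretches the medians of the 3 libraries of a line lay close together, and the lines did not overlap.

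On A10 most of the calls were lower in R8Q10. Of 1474 tested genes 774 (52.5%) were lower and 149 (10.1%) higher, against 16.2% and 15.2% of all genes tested. The higher genes were 88 without YH25005 replicate 1 and 89 without YH25005 replicate 3. At least 16-fold lower were 546, and 314 of the called genes had 0 counts in R8Q10. Over all genes tested, A10 included, these counts were 1032 and 512. The share called lower was high at every level, at 73.9% under 1 CPM, 54% at 1 to under 10 CPM, 47.5% at 10 to under 100 CPM and 46.4% at 100 CPM and over.

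The lower genes of A10 were gathered in 1 stretch. From BnaA10g13030D to BnaA10g24950D 572 of 607 tested genes were lower in R8Q10 and 4 higher, and 271 had 0 counts there. With those genes at their bound the median log2 fold change was -7.27 (quartiles -8.74 and -4.87). The median gene had 0, 0 and 0 CPM in R8Q10 and 8.49, 9.69 and 8.72 CPM in YH25005. Lower calls made up 88.9% of the 45 genes under 1 CPM, 94.8% of 400 genes at 1 to under 10 CPM, 95.5% of 154 genes at 10 to under 100 CPM and 6 of the 8 genes at 100 CPM and over. BnaA10g23630D, in this stretch, had 0 counts in R8Q10 and 380, 210 and 378 CPM in YH25005, at least 12667-fold lower (adjusted p = 0.000117, edgeR). BnaA10g23780D had 0 counts against 180, 87.5 and 183 CPM, at least 5848-fold lower (adjusted p = 0.000172). The last IDs of A10, from BnaA10g30010D on, repeated the picture in small, with 21 of 26 genes lower.

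The rest of A10 was nearer to the other chromosomes, though 38.6% of its tested genes were called, against 29.5% on those 17. There 144 of 841 tested genes were higher and 181 lower, with a median log2 fold change of 0.03. Of the 34 genes with 0 counts in R8Q10, 10 and 9 lay in the windows on either side of the low stretch. A further 12 lay in the window before the last IDs. BnaA10g07120D had 25.4, 10.1 and 34.9 CPM in R8Q10 and 0 counts in YH25005, at least 688-fold higher (adjusted p = 0.00103, edgeR). BnaA10g09490D had 40.6, 52.2 and 48.4 CPM against 3.19, 3.01 and 1.75 CPM, a log2 fold change of 4.14 (SE 0.27, adjusted p = 8.65e-05). Both lie before the low stretch, and their lines did not overlap.

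On C9 the calls leaned the opposite way. Of 2145 tested genes 670 (31.2%) were higher in R8Q10 and 223 (10.4%) lower. Without YH25005 replicate 1, 592 genes of C9 were called, 134 of them lower, and without YH25005 replicate 3, 589 and 131; without R8Q10 replicate 1, 139 were lower. From BnaC09g35030D to BnaC09g49990D 445 of 722 tested genes were higher and 14 lower, with a median log2 fold change of 0.97 (quartiles 0.49 and 1.41), close to 2-fold. The median gene had 15.9, 16.1 and 16.7 CPM in R8Q10 and 8.07, 8.11 and 8.01 CPM in YH25005. The size of the change was alike by level, with medians of 0.91 at 1 to under 10 CPM, 1.01 at 10 to under 100 CPM and 0.99 at 100 CPM and over, and 1.52 over the 9 genes under 1 CPM. In the last IDs of C9, from BnaC09g54000D on, 22 of 34 genes were higher with a median of 1.24. With library totals alone the lean to R8Q10 on C9 grew, with 129 genes lower.

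The first IDs of C9 held calls in both directions. From BnaC09g00010D to BnaC09g03970D 65 of 154 tested genes were higher, 28 genes had 0 counts in YH25005, and 53 genes were lower. The higher genes included 28 of the 30 from BnaC09g01120D to BnaC09g01940D. BnaC09g00090D had 46.7, 54.1 and 66.1 CPM in R8Q10 and 0 counts in YH25005, at least 1689-fold higher (adjusted p = 6.36e-05, edgeR). BnaC09g03710D, at the other end of this stretch, had 7.61, 29.5 and 1.94 CPM in R8Q10 and 1384, 782 and 1331 CPM in YH25005, a log2 fold change of -6.48 (SE 1.05, adjusted p = 0.00419). Its libraries stood in the order seen in the abundant lower genes, with replicate 2 nearest to the other line.

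Over the rest of C9 138 of 1235 tested genes were higher and 156 lower, with a median of -0.01. BnaC09g08240D had 35.7, 40.4 and 45.3 CPM in R8Q10 and 0 counts in YH25005, at least 1232-fold higher (adjusted p = 5.83e-05, edgeR). BnaC09g41160D, although it lies in the raised stretch, had 1.03, 2.13 and 1.06 CPM in R8Q10 and 38, 29.1 and 39.4 CPM in YH25005, a log2 fold change of -4.64 (SE 0.34, adjusted p = 0.000138). In A28 and SW it stayed at or below 0.265 CPM, so YH25005 was the only line of the 4 above 3 CPM.

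**Figure D4:**
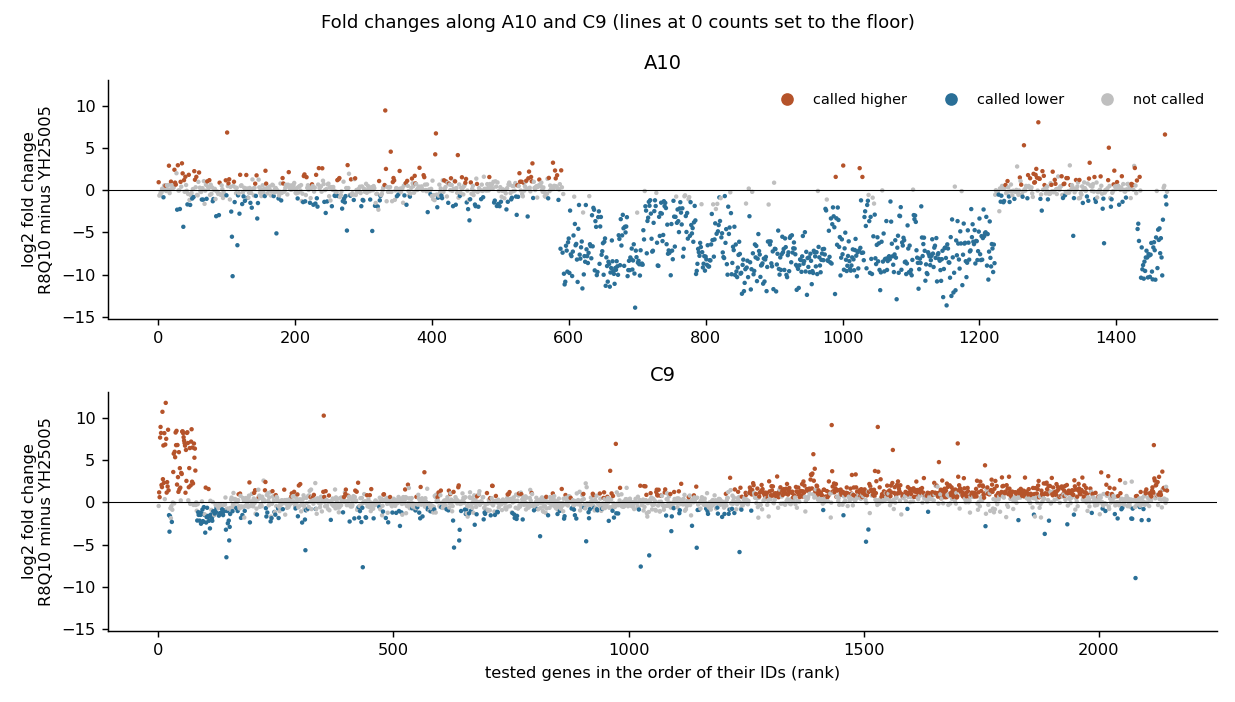
Log2 fold change (R8Q10 minus YH25005) of every tested gene of A10 (upper) and C9 (lower) in the order of the IDs, with genes at 0 counts in a line set to their bound (brown called higher, blue called lower, grey not called). A run of 607 genes on A10 has a median of -7.27 and a run of 722 genes on C9 a median of 0.97.

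Summed over each chromosome, A10 took a smaller and C9 a larger part of the counts in R8Q10. A10 took 1.84%, 1.88% and 2.05% of the counts in R8Q10 (1.92% ± 0.11, SD, n = 3) and 4.46%, 4.02% and 4.46% in YH25005 (4.31% ± 0.25, n = 3). C9 took 5.97%, 6.14% and 6.24% (6.12% ± 0.14) in R8Q10 and 3.73%, 4.1% and 3.69% (3.84% ± 0.23) in YH25005. Neither chromosome's shares overlapped between the lines, and each two-sided exact permutation p was 0.1 (0.133 adjusted over 4 measures), the smallest that 3 against 3 libraries allow. Together the chromosomes took 8.04% ± 0.24 in R8Q10 and 8.15% ± 0.031 in YH25005, with overlap and an exact p of 0.6. The single gene BnaA10g02240D held 1.96%, 1.22% and 1.96% of the counts in YH25005, and 0.024%, 0.0511% and 0.00151% in R8Q10. The like shares of both chromosomes together include this gene, and they were not computed without it. The chromosome shares above count every gene in a line's list. Without this gene, and over genes listed for both lines alone, A10 took 1.89% ± 0.13 in R8Q10 and 2.5% ± 0.18 in YH25005.

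The shares of the stretches themselves varied less between the libraries of a line than between the lines. The A10 stretch took 0.128%, 0.105% and 0.15% in R8Q10 and 1.02%, 1.14% and 1.01% in YH25005. The C9 stretch took 2.98%, 2.99% and 3.11% in R8Q10 and 1.29%, 1.44% and 1.29% in YH25005. The lines did not overlap in either. On the 17 other chromosomes the A subgenome took 49%, 50.1% and 49.8% of the counts in R8Q10 (49.6% ± 0.57) and 50.4%, 50.7% and 50.7% in YH25005 (50.6% ± 0.2). The lines did not overlap (exact p = 0.1), and R8Q10 replicate 1, the library with the raised C4, was the lowest. Counted over genes listed for both lines alone, the difference of the means went from -0.971 to -0.235 percentage points (exact p = 0.6).

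**Figure D5:**
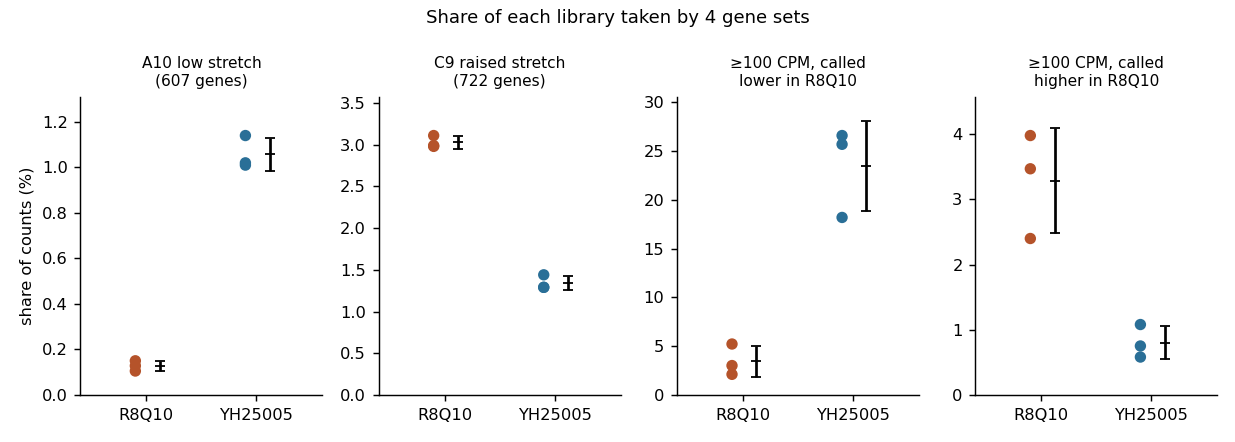
Share of all counts taken in each library by the A10 low stretch, the C9 raised stretch and the genes of the 17 other chromosomes at 100 CPM and over called lower or higher in R8Q10 (points, libraries; black bars, mean ± SD of 3; each axis starts at 0 with its own range). The A10 stretch holds 0.105% to 0.15% in R8Q10 and 1.01% to 1.14% in YH25005, and the abundant lower genes hold 2.11% to 5.22% and 18.2% to 26.6%.

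Genes whose IDs name no chromosome were called higher and lower in like numbers as a whole, but not in each part. Of 6172 tested, 969 were higher and 959 lower, or 31.2% called, against 31.5% of all genes tested. Those with a C subgenome ID had 429 higher and 296 lower of 2511, or 17.1% and 11.8%. Those with an A subgenome ID had 226 and 243 of 1542, or 14.7% and 15.8%, and those of neither subgenome 8 and 20 of 88. Those the authors had added showed 306 higher and 400 lower of 2031 (15.1% and 19.7%), or 34.8% called. Of all genes tested 15.2% were higher and 16.2% lower. The pair of genes that the reference table names did not pass. KCP1 (BnaA02g32290D), known in rapeseed as a partner of a histone deacetylase, had 11.3, 11 and 16.4 CPM in R8Q10 and 12.2, 9.32 and 10.4 CPM in YH25005, with overlap and a log2 interval from -0.22 to 0.78 (adjusted p = 0.351, edgeR). TR1 (BnaCnng15100D) had 30.2, 29.3 and 32 CPM against 22.8, 26.2 and 24.2 CPM, without overlap and with an interval from -0.01 to 0.66 (adjusted p = 0.125). Both intervals stayed within 2-fold, and with library totals alone both genes passed, at log2 fold changes of 0.68 and 0.71.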

How the data were processed

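Per the labels' protocols, poly-A selected RNA was sequenced in read pairs; strand marking is not mentioned, so overlapping and antisense genes cannot be told apart. Tools listed in the submitters' processing notes were HISAT2, DESeq2 and bcl2fastq, with no version. Neither the build and annotation of the genome nor the counting program nor the treatment of reads that match both an A and a C copy is given in the sources used here, so levels of single copies are uncertain and no coordinates are printed. Per the file headers, each deposited file covers 1 library and lists for every gene its read count and its FPKM. The deposited counts were whole numbers and were used as counts. FPKM, as deposited, entered no test and are printed only as levels per length. Library sizes were summed over every gene in a line's list. At most 2.17% of genes had equal counts in any pair of the 6 libraries, so none was counted as a repeat.

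The 6 libraries of the 2 lines were fitted with edgeR 4.0.16 under R 4.3.3 (TMM, filterByExpr, quasi-likelihood F test, Benjamini-Hochberg over all 43473 genes tested, threshold 0.05), with R8Q10 minus YH25005 as the contrast. The SE of a log2 fold change was its size over the square root of F. A fold against a line at 0 counts was computed against 3 counts over that line's 3 libraries, in scaled CPM. Shares were compared with a two-sided exact permutation test. Stretches follow the order of the IDs, of which 55 of 57 matched A10 IDs and 148 of 151 matched C9 IDs lie on the same chromosome of the Da-Ae assembly.

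Named genes were, by rule, the 2 of largest change per direction and class outside A10 and C9 (all called genes, and those with at least 10 counts in every library), the 2 per direction on A10 and on C9 with a mean of at least 10 CPM, the 4 placed genes of highest mean called in each direction and the 3 not called, and genes the reference table names. The members, classes and lists were chosen with earlier results of these data known. Alternatives were DESeq2 1.42.0, other scalings and filters, all 12 libraries in the fit, a replicate block, each library left out, and level classes by FPKM, the last chosen after seeing the data.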

Additional observations from a re-analysis of the deposited data

Results flagged for a closer look

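Genes listed for 1 of the lines only lie outside the comparisons, and some had high counts there. Among genes listed for R8Q10 and not for YH25005, 1 had a mean of at least 100 CPM, BnaCnng30350D with 180 CPM (SD 68.6, range 134 to 259, n = 3). The highest of those whose ID names a chromosome was BnaA08g21880D with 67.3 CPM (SD 17.5, range 52.6 to 86.6). Among genes listed for YH25005 and not for R8Q10, 31 had a mean of at least 100 CPM. BnaA01g16230D had 11609 CPM in YH25005 (SD 4322, range 6628 to 14380), and BnaA08g31350D had 1305 CPM (SD 458, range 788 to 1661). A gene missing from a line's list is not a measured 0, so no fold change is given for these genes. With 3 libraries per line, single values were not tested for outliers within a line.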

How the results depend on the processing

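For 21 counts and shares, 203 of 277 values under the alternatives stayed close to those above (counts within 1.5 times). The exceptions follow, and the cause was not tested unless fewer genes or libraries entered. With library totals alone, 10495 genes were called higher and 2735 lower outside A10 and C9 (4745 and 1290 at 1 to under 10 CPM, 5396 and 1238 at 10 to under 100, 210 and 169 at 100 and over, and 144 higher under 1), 287 were higher on A10 and 129 lower on C9. Deviations from the line means correlated at -0.0736, -0.299 and 0.0832 between same-numbered libraries, and at -0.249 to 0.304 between the others. With 3 libraries per line these values cannot decide whether the replicate numbers pair the libraries. A fit with the replicate number as a block called 5757 genes outside A10 and C9, 2748 higher and 3009 lower (by rising class 58 and 31, 1413 and 1396, 1245 and 1443, 32 and 139), with 98 higher on A10 and 144 lower on C9, and the 8 called genes of highest mean (4 higher, 4 lower) did not pass. DESeq2 called 142 genes higher under 1 CPM and 174 at 100 and over. With all 12 libraries in the fit, 7222 genes were called outside A10 and C9, 1411 higher at 10 to under 100 CPM and 61 at 100 and over, and BnaC09g44450D, BnaC01g16050D, BnaA01g13670D and BnaC01g43250D did not pass. A mean of at least 5 CPM leaves fewer genes, with 514 called on A10 (96 higher, 418 lower), 1147 higher and 1086 lower at 1 to under 10 CPM, and 0 in either direction under 1 CPM, where 0 genes were tested by any tool or p. Classes by deposited FPKM, chosen after seeing the data, put 201 higher and 239 lower genes under 1. Leaving out each library in turn gave 5040 to 11840 calls outside A10 and C9 (2328 to 5604 higher, 2712 to 6236 lower), with 60 to 128 higher under 1 CPM, 1256 to 2561 higher and 1246 to 2676 lower at 1 to under 10, 983 to 2773 and 1291 to 3128 at 10 to under 100, and 20 to 142 and 125 to 377 at 100 and over. On A10 it gave 88 to 164 higher, and on C9 589 to 963 calls and 131 to 293 lower. The share of A10 and C9 together ranged from -0.236 to 0.00535 percentage points (R8Q10 minus YH25005) and changed sign without R8Q10 replicate 1. The difference for the A subgenome moved from -0.971 to -0.235 points (exact p = 0.6) when only genes listed for both lines entered the total. BnaC07g18750D, not called, ranged from -0.02, without R8Q10 replicate 1, to 2.14. Over the 43 named genes, 563 of 602 alternatives left direction and call as they were, 36 ended a call and 2 made one. Of the genes not called outside A10 and C9, the interval reached 2-fold for 469 of 484 under 1 CPM, 7447 of 12676 at 1 to under 10, 2758 of 9961 at 10 to under 100 and 369 of 624 at 100 and over. The part of depth in these widths was not tested.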
